A study of Mus musculus with 35 samples.

Results

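Lif, Lifr, Il6st, Jak1, Jak2, Stat3 and Socs3 make up the LIF receptor and STAT3 pathway described here. The 7 genes were taken by their symbols from the induction table of 44853 genes, where all 7 passed the filter on low values. Of these, 6 were also listed in the siRNA table of 6275 genes, which holds genes the authors had called responsive to GATA6 and has no row for Socs3. Leukaemia inhibitory factor (LIF) is a cytokine that binds LIFR, which then pairs with gp130, the shared chain of the interleukin-6 receptor family encoded by Il6st. The Janus kinases JAK1 and JAK2 sit on these chains and phosphorylate STAT3, a transcription factor that then enters the nucleus. SOCS3, itself a target of STAT3, binds the receptor and shuts the signal down. In mouse embryonic stem (ES) cells the pathway is known for holding cells in self-renewal, and LIF is added to their medium for that reason. In the early embryo the pathway also acts in primitive endoderm (PrE), the lineage that GATA6 specifies.

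RNA-seq was made to follow ES cells into PrE under GATA6. The induction series held 23 libraries. ES cells of the KH2 line, of genotype C57BL/6 x 129/Sv and with a Dox-inducible gata6 cassette, were untreated (0 h) or had received doxycycline (Dox) at 1 µg/mL for 16, 24, 48, 72, 96 or 168 h, with 3 libraries per time. The last 2 libraries were of untreated wild-type XEN cells, an extra-embryonic endoderm line (X10, genotype CD1) taken as the PrE reference. The siRNA series held 12 libraries of the same kind of inducible ES cells after 48 h of Dox at 1 µg/mL, 6 with control siRNA (siCTL) and 6 with oct4 siRNA (siOct4). All ES cells grew with LIF in the medium on mitomycin C-inactivated fibroblast feeders, with or without Dox, and XEN cells grew on the same support without LIF. Feeders were depleted by adsorption to plastic before lysis. Differences between XEN cells and ES cells in the medium, the genotype and the line therefore cannot be told apart. XEN cells were 1 line and the siRNA cells 1 clone, and the clone of the induction series is not given in the sources used here. In these bulk libraries, fewer cells of a type and less RNA per cell cannot be told apart.

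Values are TPM, the share of transcripts that a gene holds after division by transcript length, scaled to the same total in each library. TPM keep no record of depth, so no number of reads can be set behind a value. The induction libraries each had 12034 to 13109 genes at 1 TPM or more. The labels were borne out by 5 ES markers, whose summed level was 2713 to 2960 TPM at 0 h and 3.51 to 4.15 TPM in XEN cells, and by 7 PrE markers, at 3.10 to 4.44 and 1588 to 1603 TPM. Summed levels of 9 fibroblast markers were 26.1 to 89.6 TPM at 0 h and 104.2 to 231.3 TPM at 168 h. They were 57.4 to 59.5 TPM in XEN cells. At 168 h 6 of the 9 were called higher, Col1a2, Col3a1, Dcn, Lum, Postn and Twist1. Twist1 was also called higher at 24, 48, 72 and 96 h. The 9 did not move together. Thy1 was at 1.882, 1.198 and 33.03 TPM at 168 h against 4.631, 4.751 and 23.78 TPM at 0 h. Col1a2 and Col3a1 held 38.32 and 37.66 of the 108.0 TPM in replicate 1 of 168 h. The summed level was highest in replicate 3 at every time but 96 h. Replicate 3 at 72 h had the lowest agreement with another library of its group, at r = 0.987 across genes. At 168 h, replicate 3 had 111.9 TPM of Pou5f1 against 39.1 in each of the others.

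Promoters of Lifr, which had the largest change at 168 h, and of Socs3, the textbook STAT3 target, are shown to give the sequence context of these genes. The stretches, from RefSeq on GRCm38.p6 (the mm10 build), lie upstream of the RefSeq starts and hold no annotated exon of their gene. Lifr has 2 starts there, and TPM per gene does not separate them. In GENCODE M21 Lifr spans 7090614 to 7197489 on the plus strand and Socs3 117966079 to 117970047 on the minus strand. All stretches shown lie within these spans, downstream of the outermost GENCODE start of their gene. Capitals mark matches to the STAT sequence TTCNNNGAA or to the GATA sequences AGATAA with its variant AGATAG and likewise TGATAA with its variant TGATAG, searched on both strands with no overlap between the kinds. The first Lifr start lies on the plus strand at chr15:7129322-7129558, the second on the plus strand at chr15:7140292-7140541, and the Socs3 stretch on the minus strand at chr11:117969452-117969616.
Lifr, first start: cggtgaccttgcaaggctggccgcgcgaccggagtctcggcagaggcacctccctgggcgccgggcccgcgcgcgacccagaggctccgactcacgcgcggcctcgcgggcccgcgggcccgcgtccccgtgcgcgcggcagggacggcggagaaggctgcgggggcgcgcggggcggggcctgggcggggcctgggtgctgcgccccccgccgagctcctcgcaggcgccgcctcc
Lifr, second start: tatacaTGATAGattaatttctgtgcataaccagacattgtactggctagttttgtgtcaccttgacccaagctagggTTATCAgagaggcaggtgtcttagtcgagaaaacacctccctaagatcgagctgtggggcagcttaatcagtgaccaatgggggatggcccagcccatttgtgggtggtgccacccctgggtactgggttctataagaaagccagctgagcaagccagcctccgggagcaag
Socs3: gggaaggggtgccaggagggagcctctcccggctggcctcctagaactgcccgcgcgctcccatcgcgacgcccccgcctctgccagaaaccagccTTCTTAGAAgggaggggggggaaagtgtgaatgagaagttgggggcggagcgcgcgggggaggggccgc
Within 250 bases before a start, the second Lifr start held 2 GATA matches and the Socs3 start held 1 STAT match. Windows of the other 6 entries for the 7 genes held neither. A GATA match was present in 26.5% of all 32851 promoters of the same length and a STAT match in 7.02%, so a match is a description of the letters and not of binding. The GC content was 82.4% before the first Lifr start and 50.8% before the second.

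The 7 genes were compared with 0 h at each time to ask when GATA6 induction changed the pathway. All times shared the same 0 h libraries. Calls needed an adjusted p under 0.05 (limma, Benjamini-Hochberg over 15057 genes) together with a log2 fold change beyond 1 in either direction on the log2(TPM + 1) scale, which understates changes of low genes. No member was called at 16 h, 24 h or 48 h. At those times 3, 4 and 4 of the 7 had an unadjusted p under 0.05, as had 3720, 5812 and 8784 of the 15057 genes. By the full criteria 1.97%, 3.24% and 9.14% of all genes were called higher and 0.804%, 2.44% and 7.26% lower. Lifr and Jak2 were called higher at 72 h, where 14.7% of genes were higher and 11.5% lower. Lif joined them at 96 h, where 15.4% were higher and 14.1% lower. At 168 h 6 of 7 members were called higher and none lower, against 22.6% and 16.5% of all genes. Their median log2 fold change was 1.33, and that of all genes tested 0.09. Rescaling by the median of ratios moved the latter to -0.05, and 5 of the 6 calls held under it, without Jak1.

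**Figure D1:**
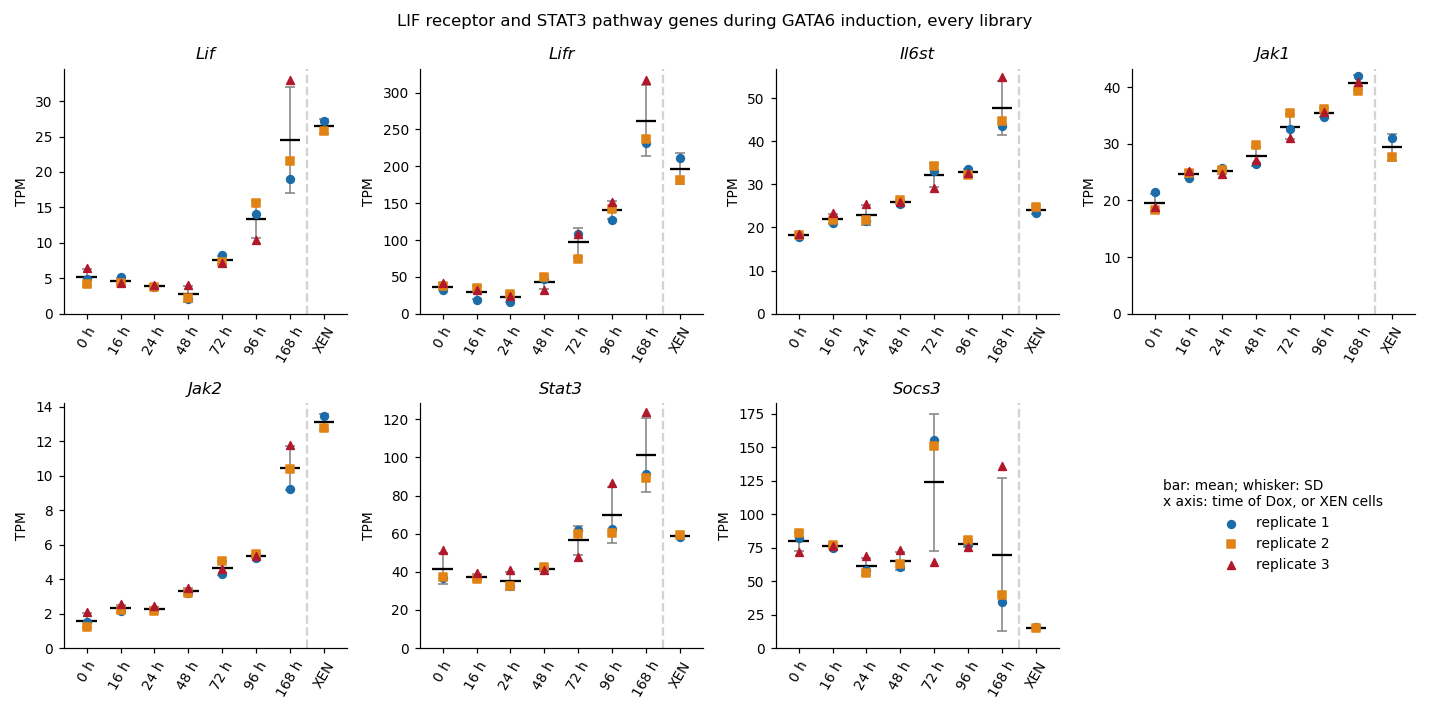
TPM of the 7 genes (y axis, linear from 0) in every library of the induction series, by hours of Dox and in XEN cells (x axis). Points are libraries, bars are group means and whiskers are SD. Lifr climbs from 31.6 to 41.6 TPM at 0 h to 231.3 to 317.5 TPM at 168 h, while Socs3 scatters at 72 h and 168 h and is lowest in XEN cells.

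Lif encodes the ligand (mm10, chromosome 11, 4257557 to 4272514). Its levels at 0 h were 4.83, 4.13 and 6.38 TPM. They were 2.08, 2.24 and 4.11 TPM at 48 h, the lowest group mean of the course, with a log2 fold change of -0.70 ± 0.20 (SE, adjusted p = 0.00562) that stayed under the fold change minimum. From 72 h the libraries of each group lay above all of those at 0 h. Lif reached 7.22 to 8.25 TPM at 72 h, 10.4 to 15.6 TPM at 96 h, and 19.0, 21.6 and 33.0 TPM at 168 h. The mean at 168 h, 24.5 ± 7.46 TPM (SD, n = 3), was 4.80 times that at 0 h, and the fitted log2 fold change was 2.04 ± 0.20 (SE, adjusted p = 1.87e-08). In XEN cells it was 27.2 and 25.7 TPM, close to the level at 168 h. Replicate 3 at 168 h had both the highest Lif and the highest fibroblast marker sum. Without that library Lif was still called, at 1.81. The part of fibroblast RNA in the 168 h values was not tested. Against 0 h, none of the 9 fibroblast markers was called in XEN cells, with 0 at an unadjusted p under 0.05. Their levels there ran from 0.13 TPM for Lum to 37.1 TPM for Col1a2, with Dcn, Lum and Twist2 under 1 TPM and the other 6 above it.

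Lifr encodes the LIF-binding receptor chain (chromosome 15, 7090614 to 7197489) and had the largest log2 fold change of the 7 at 168 h. Before Dox it was at 31.6, 37.6 and 41.6 TPM. It stood at 18.5, 35.1 and 32.9 TPM after 16 h, at 15.3, 26.3 and 24.7 TPM after 24 h, and at 46.6, 50.2 and 32.1 TPM after 48 h. All 3 libraries at 24 h were below all at 0 h, with a log2 fold change of -0.74 ± 0.24 (SE, adjusted p = 0.0228), under the fold change minimum. The rise followed, with 108.4, 73.9 and 108.2 TPM at 72 h, 127.6, 142.3 and 151.3 TPM at 96 h, and 231.3, 236.9 and 317.5 TPM at 168 h. No library from 72 h on overlapped with any of an earlier time. The log2 fold change against 0 h was 1.35 ± 0.24 (SE, adjusted p = 4.88e-05) at 72 h and 2.79 ± 0.24 (SE, adjusted p = 2.30e-09) at 168 h, a ratio of mean TPM of 7.10. XEN cells had 211.7 and 182.1 TPM, 2.39 ± 0.26 above 0 h on the log2 scale (SE, adjusted p = 1.25e-07).

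Il6st encodes gp130, the signalling chain (chromosome 13, 112464070 to 112510086), and followed a flatter course. Its levels were 17.9, 18.3 and 18.5 TPM at 0 h and 43.4, 44.7 and 55.0 TPM at 168 h. Group means rose in order of time from 18.2 to 22.0, 22.9, 25.9, 32.2, 32.7 and 47.7 TPM, with the means at 16 h and 24 h, and those at 72 h and 96 h, closer than the larger SD. Il6st was called only at 168 h, at 1.33 ± 0.09 (SE, adjusted p = 4.61e-11). In XEN cells it was at 23.5 and 24.7 TPM, within the range of 24 h of Dox.

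Because LIFR and gp130 act as partners, their ratio was taken within each library, where it does not depend on library scaling. Lifr over Il6st was 1.77 to 2.25 at 0 h, 0.712 to 1.21 at 24 h, 5.29 to 5.78 at 168 h, and 9.02 and 7.38 in XEN cells. The ratios at 24 h lay under all of those at 0 h, and the ratios at 168 h and in XEN cells above all of them. XEN cells also lay above all 3 libraries at 168 h.

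**Figure D2:**
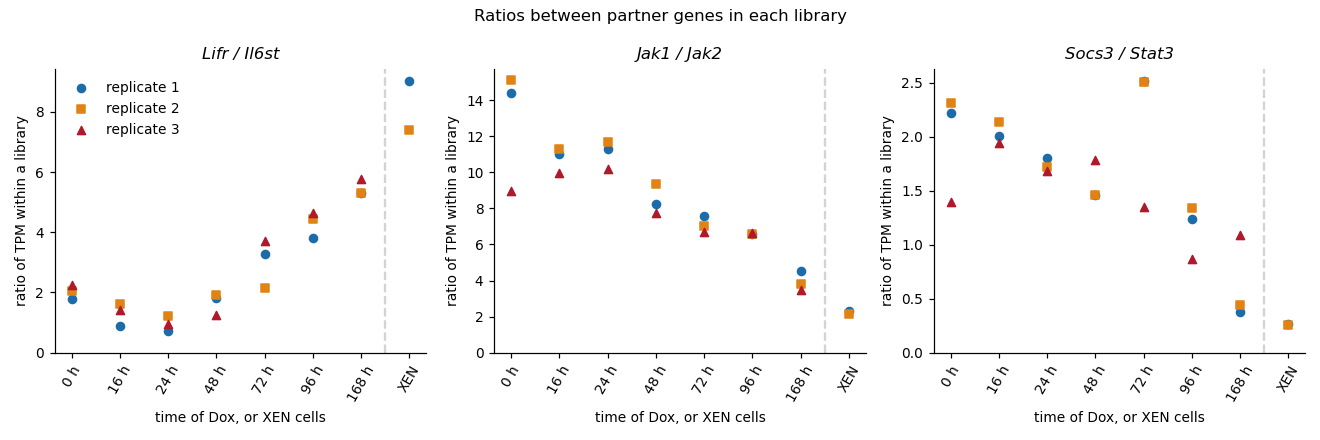
Ratio of TPM of partner genes within each library (y axes, linear from 0) by hours of Dox and in XEN cells (x axis), with points as libraries. Lifr over Il6st dips to 0.712 to 1.21 at 24 h and reaches 7.38 to 9.02 in XEN cells, Jak1 over Jak2 falls from 8.96 to 15.1 to 2.16 to 2.30, and Socs3 over Stat3 falls from 1.40 to 2.31 to 0.255 to 0.267.

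Jak1 and Jak2 encode the receptor-bound kinases (chromosome 4, 101152367 to 101265282, and chromosome 19, 29251828 to 29313080). Jak1 was at 21.4, 18.2 and 18.8 TPM at 0 h and at 42.0, 39.4 and 40.9 TPM at 168 h. All libraries of every Dox time lay above those at 0 h, by 0.33 ± 0.07 (SE, adjusted p = 0.00394) on the log2 scale at 16 h and by 1.03 ± 0.07 (SE, adjusted p = 1.34e-10) at 168 h. Only the last value passed the fold change minimum, by a margin that rescaling ended at 0.85, as did leaving out replicate 2 of 0 h at 0.98.

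Jak2 started much lower, at 1.49, 1.21 and 2.10 TPM. It was at 4.29 to 5.06 TPM at 72 h, at 9.24, 10.4 and 11.8 TPM at 168 h, and at 13.5 and 12.8 TPM in XEN cells, the highest group. Its log2 fold change was 1.13 ± 0.11 (SE, adjusted p = 5.22e-08) at 72 h, 2.15 ± 0.11 (SE, adjusted p = 2.46e-12) at 168 h and 2.46 ± 0.13 (SE, adjusted p = 2.30e-12) in XEN cells. Jak1 over Jak2 was 8.96 to 15.1 at 0 h, 3.47 to 4.54 at 168 h, and 2.30 and 2.16 in XEN cells, with no overlap between those groups.

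Stat3 encodes the transcription factor of the pathway (chromosome 11, 100885098 to 100939540). Its levels were 36.9, 37.1 and 51.3 TPM at 0 h and between 32.4 and 42.8 TPM at 16, 24 and 48 h. They were 47.6 to 61.8 TPM at 72 h, 62.7, 60.3 and 86.5 TPM at 96 h, and 91.3, 89.4 and 123.9 TPM at 168 h. The libraries at 72 h still overlapped with those at 0 h, and those from 96 h on did not. Stat3 was called at 168 h only, at 1.26 ± 0.15 (SE, adjusted p = 3.74e-07), and without replicate 3 of 168 h it was still called at 1.11. XEN cells had 58.4 and 59.3 TPM, between the means at 72 h and 96 h.

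Socs3 encodes the feedback inhibitor (chromosome 11, 117966079 to 117970047) and was the only member called higher at no Dox time. It was at 81.8, 85.6 and 71.7 TPM at 0 h, 74.6, 77.1 and 76.3 TPM at 16 h, 58.4, 56.0 and 68.5 TPM at 24 h, and 60.2, 62.7 and 72.8 TPM at 48 h. At 72 h replicates 1 and 2 were at 155.4 and 150.9 TPM and replicate 3 at 64.6 TPM. At 96 h the libraries came together again at 77.6, 80.8 and 75.4 TPM. The order was turned round at 168 h, where replicates 1 and 2 were at 34.3 and 39.6 TPM and replicate 3 at 135.5 TPM. Over all 3 libraries the log2 fold change at 168 h was -0.47 ± 0.36 (SE, adjusted p = 0.24), not called. Without replicate 3 of 168 h it was -1.09 (adjusted p = 0.000531) and called, against adjusted p values of 0.0909 to 0.795 under the other 12 alternatives. The 72 h value of 0.53 (adjusted p = 0.206) became 0.94 (adjusted p = 0.0272) without replicate 3 of 72 h, under the fold change minimum. The size of the Socs3 change at 168 h, and whether it was called, thus depended on 1 library, while its sign was negative under all 13 alternatives.

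In XEN cells Socs3 was at 15.6 and 15.1 TPM, below every ES library at every time. The mean was 5.19 times lower than at 0 h, with a log2 fold change of -2.30 ± 0.40 (SE, adjusted p = 4.19e-05). Socs3 over Stat3 was 1.40 to 2.31 at 0 h, 0.375, 0.443 and 1.09 at 168 h, and 0.267 and 0.255 in XEN cells. LIF was in the medium of the ES cells and not of the XEN cells, and its part in the Socs3 difference cannot be told apart from that of genotype and line.

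XEN cells were also compared as a whole with ES cells before and after induction. Against 0 h, Lif, Lifr and Jak2 were called higher and Socs3 lower, among 18.9% of genes called higher and 18.7% lower. Against 168 h of Dox only Socs3 was called, at -1.83 ± 0.40 (SE, adjusted p = 0.000908), where 4.73% of genes were higher and 9.17% lower. Lif differed from 168 h by 0.14 on the log2 scale (95% interval -0.32 to 0.61), Lifr by -0.40 (95% interval -0.95 to 0.15) and Jak2 by 0.31 (95% interval 0.04 to 0.57). Il6st, Stat3 and Jak1 were lower in XEN cells by values under the fold change minimum, at -0.95 ± 0.10 (SE, adjusted p = 2.03e-07), -0.76 ± 0.17 (SE, adjusted p = 0.00111) and -0.46 ± 0.08 (SE, adjusted p = 0.000103). The Socs3 call had an adjusted p of 0.0609 in a fit of these 2 groups alone and a value of -1.21 without replicate 3 of 168 h.

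**Figure D3:**
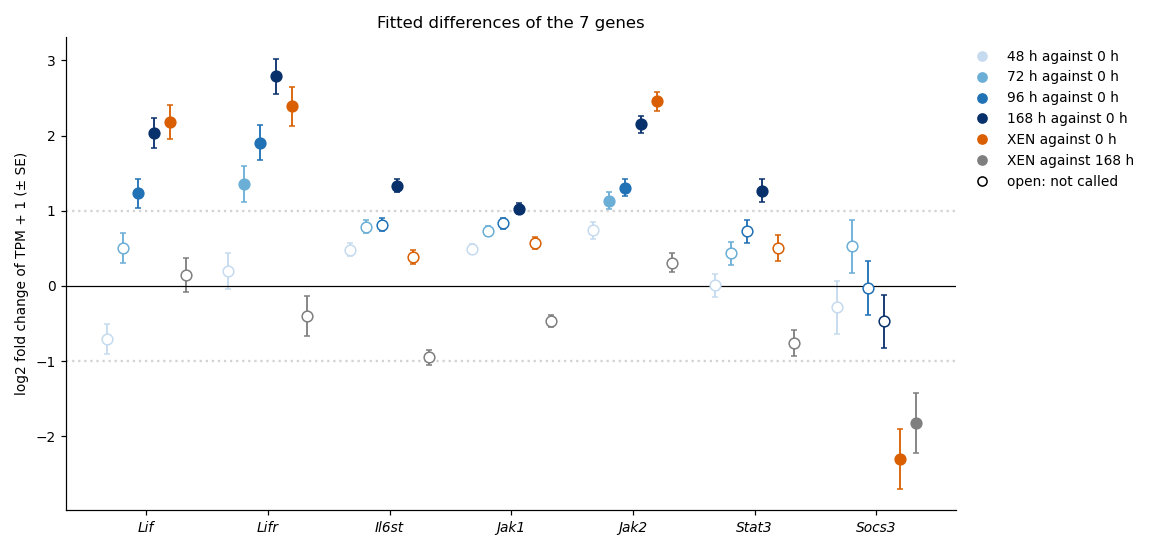
Fitted log2 fold changes of TPM + 1 (y axis) of the 7 genes (x axis) for 6 comparisons, with SE as whiskers. Filled points were called and dotted lines mark the fold change minimum of 1. Of the 7 genes, 6 are filled for 168 h against 0 h, and Socs3 alone is filled below 0, for XEN cells.

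The order of the group means summarised where the members parted. Lifr, Il6st, Stat3 and Jak1 were highest at 168 h, Lif and Jak2 in XEN cells, and Socs3 at 72 h. At the top of the order, the gap between the means of XEN cells and 168 h passed the larger SD for Jak2 and Lifr but not for Lif. In the limma fit neither Jak2 (adjusted p = 0.0545) nor Lifr (adjusted p = 0.224) was called between these groups. For Socs3 no neighbours in the order differed beyond the larger SD except 24 h and XEN cells, the 2 lowest. Over the 8 group means of log2(TPM + 1), Il6st and Jak1 correlated at r = 0.96, Lifr and Stat3 at 0.94, Lif and Lifr at 0.93, and Socs3 with the other 6 at between -0.64 and 0.10. These points share libraries and a time course, so the values describe likeness only.

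Of 11355 genes whose group mean reached 5 TPM somewhere, those most like each member over the 8 means were listed without a test. For Lif they included Gpr107 (r = 0.991) and Adam19 (0.989), which encodes a membrane metalloprotease. For Lifr they were Tlcd5 (0.993), Ccar2 (0.991) and Csrp1 (0.989). Il6st was most like Kremen1 (0.996), a Dickkopf receptor, Trrap (0.993) and Sertad2 (0.989), and Jak1 most like Rtl6 (0.992), the Polycomb gene Phc2 (0.991) and Map4 (0.991). The like genes of Jak2 were Zfp9 (0.997), Tmx1 (0.997) and Myzap (0.996), and those of Stat3 were Gm28875 (0.990), Ppp1r15a (0.989), which encodes a stress-induced phosphatase subunit, and Slc9a3r2 (0.988). Socs3 had the least close matches, Gstm4 (0.983), the protease inhibitor gene Spint2 (0.978) and Coa4 (0.976).

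The rest of the pathway was read from 50 further genes in 5 lists, of which 44 passed the filter. At 168 h 8 of the 44 were higher and 11 lower, with a median log2 fold change of 0.10. The shares for all genes at 168 h, 22.6% higher and 16.5% lower, are the background for this count and for each list count that follows, and nothing particular to the lists is read from them. Of 9 ligands that use gp130, 4 were tested and none was called at 168 h. Of the 4, 1 had an unadjusted p under 0.05, as had 11508 of all 15057 genes. Lif was thus the only ligand gene of the family called higher. Il6, Il11, Osm, Il27 and Ebi3 stayed under 1 TPM in every group mean.

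Of the other receptor chains of the family, 4 of 5 were tested at 168 h, 2 were higher and 1 lower. Osmr, which encodes the oncostatin M chain that also pairs with gp130, went from 0.81, 0.83 and 2.03 TPM at 0 h to 5.01, 6.60 and 9.71 TPM, by 1.87 ± 0.24 (SE, adjusted p = 8.97e-07). Il11ra1, the interleukin-11 receptor chain, went from 5.74 to 8.15 TPM to 18.1 to 27.6 TPM, by 1.72 ± 0.28 (SE, adjusted p = 1.93e-05). Cntfr, the ciliary neurotrophic factor receptor chain, fell by 1.41 on the log2 scale, from 4.03 to 4.46 TPM to 0.83 to 1.25 TPM.

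Among 8 further kinases and STATs, 2 were higher and 3 lower at 168 h. Stat5b rose from 1.91 to 2.47 TPM to 9.79 to 10.2 TPM, by 1.77 ± 0.16 (SE, adjusted p = 5.25e-09), and was at 1.53 and 2.02 TPM in XEN cells. Stat4 fell from 4.62 to 7.47 TPM to 0.061 to 0.081 TPM, Jak3 from 12.8 to 17.2 TPM to 3.33 to 8.19 TPM, and Stat6 from 14.9 to 15.5 TPM to 4.92 to 5.56 TPM. Jak3 was highest in replicate 3 at 168 h, as were the members other than Jak1.

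Of 15 negative regulators other than Socs3, 2 were higher, 1 was lower and 12 were not called at 168 h, against the same 22.6% and 16.5% of all genes. Socs2, a relative of Socs3 best known for restraining growth hormone signalling, fell from 67.5, 78.7 and 72.2 TPM to 2.16, 1.13 and 3.05 TPM, by 4.61 on the log2 scale (SE 0.27, adjusted p = 1.17e-11). Pias3, whose product binds STAT3 and blocks its DNA binding, rose from 13.4 to 21.9 TPM to 47.2 to 70.3 TPM, by 1.54 ± 0.16 (SE, adjusted p = 3.88e-08), and reached 82.9 and 73.8 TPM in XEN cells. Ptpn11, which encodes the phosphatase SHP2 recruited to gp130, rose from 25.1 to 26.2 TPM to 64.5 to 67.1 TPM, by 1.31 ± 0.06 (SE, adjusted p = 6.09e-13). Socs1, named after its values were seen, was called higher at 24, 48, 72 and 96 h. It was at 1.39 to 1.63 TPM at 0 h, 22.6 to 28.8 TPM at 72 h, and 1.26, 1.93 and 4.96 TPM at 168 h, so its peak had passed when 6 members were highest among the Dox times.

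Of 13 known LIF and STAT3 targets of ES cells, 6 were lower and 2 higher at 168 h, with a median log2 fold change of -0.42. Tfcp2l1, a naive pluripotency factor, fell from 65.1 to 87.5 TPM to 1.85 to 3.59 TPM, by 4.40 on the log2 scale (SE 0.27, adjusted p = 1.71e-11). At 24 h it was still at 62.6 to 86.9 TPM. Gbx2, a homeobox gene, fell by 4.20, from 45.6 to 60.9 TPM to 1.80 to 2.37 TPM, and was called lower from 16 h. Myc fell by 3.44, after 58.1 to 63.3 TPM at 16 h against 26.8 to 34.8 TPM at 0 h, and Bcl3 by 2.72.

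Klf4 and Klf5, the Krüppel-like factors of that list, were not called at 168 h, and Klf5 was called higher at 72 h. Klf4 was at 73.7 to 77.7 TPM at 0 h and 130.3 to 135.5 TPM at 168 h (0.81 ± 0.18, SE, adjusted p = 0.000441). Klf5 was at 98.9 to 118.9 TPM at 0 h, 213.1 to 254.9 TPM at 72 h and 129.2 to 165.4 TPM at 168 h (0.44 ± 0.09, SE, adjusted p = 0.000144). The 2 targets called higher, Fos (2.58 ± 0.37, SE) and Junb (1.27 ± 0.22, SE), encode AP-1 subunits and were named after their values were seen because they were so few. Pramel7, chosen after its values were seen, was at 0.21 to 0.36 TPM at 0 h, 19.3 to 21.0 TPM at 48 h and 0.071 to 1.38 TPM at 168 h.

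**Figure D4:**
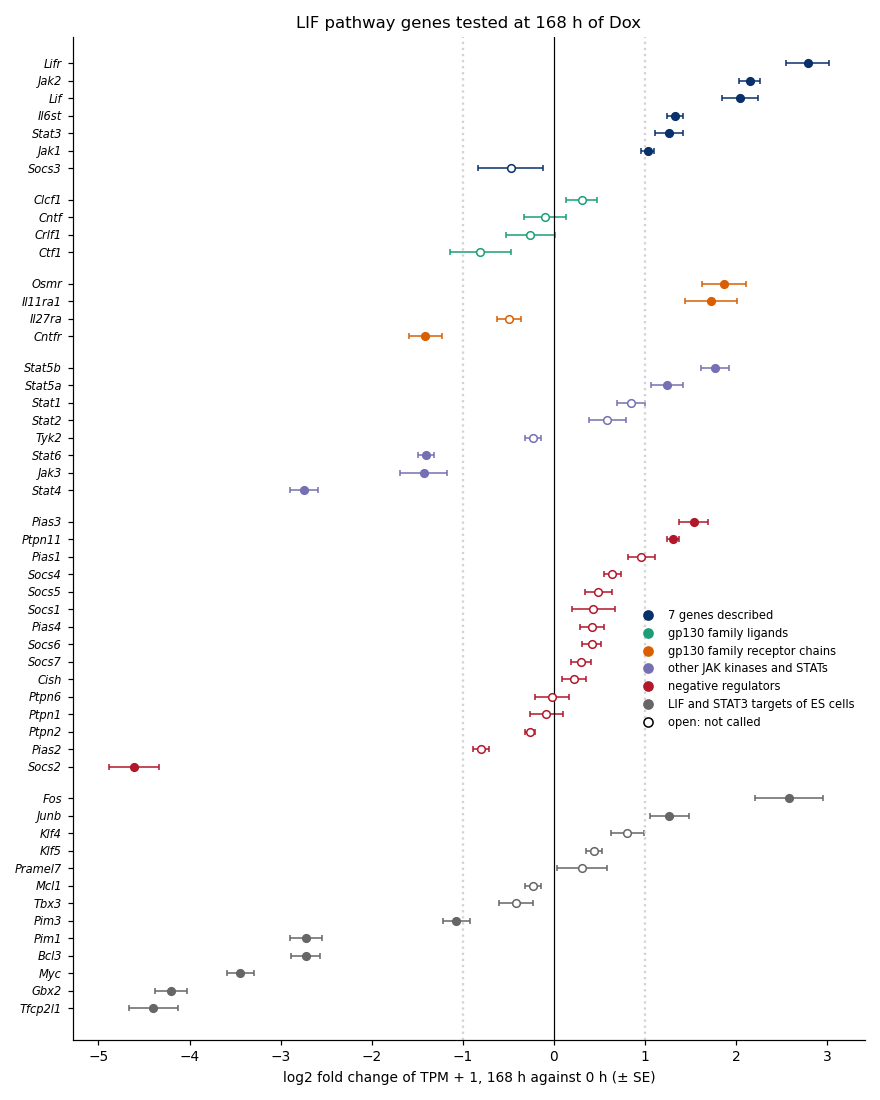
Log2 fold change of TPM + 1 at 168 h against 0 h (x axis, whiskers SE) of every tested gene of the pathway (y axis), grouped by list. Filled points were called and dotted lines mark changes of 1. Of the members 6 of 7 lie to the right, of 44 other genes 8 were higher and 11 lower, and Socs2, Tfcp2l1 and Gbx2 lie furthest to the left.

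The siRNA series asked what Oct4, the product of Pou5f1, contributes after 48 h of Dox. The level of Pou5f1 ranged from 782 to 1194 TPM with siCTL and from 282 to 387 TPM with siOct4, so the labels held. The siRNA table has its own set of genes, and its levels were compared only within it. Of the 6 members listed none was called by limma over 6264 genes, with the same limit on the adjusted p and a log2 fold change beyond 0.5 in either direction. Of all those genes 0.942% were higher and 1.72% lower. At an unadjusted p under 0.05, 2 of the 6 differed, Lif and Lifr, as did 867 of the 6264 genes. This share is the background for the later counts at that limit in the siRNA series. Libraries with the same number deviated together in all 6 pairs, though the labels name no pairs. With the pair as a block Lif was called higher and Lifr lower, among 2.43% of genes higher and 6.15% lower under the block. The block takes the pairs as independent of each other, which was not tested. Neighbouring numbers were alike for Sox2, at 6.25, 5.62, 2.87, 3.46, 33.8 and 28.6 TPM in siCTL libraries 1 to 6. With siOct4 the levels in the same order were 4.65, 3.28, 2.39, 2.63, 23.3 and 20.8 TPM.

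With siCTL, libraries 1 to 6 held Lif at 2.69, 1.14, 0.825, 1.40, 1.78 and 2.41 TPM. With siOct4 the levels in the same order were 3.55, 3.21, 2.16, 1.52, 5.82 and 4.67 TPM. It was higher with siOct4 in 6 of 6 pairs, though the groups overlapped. The log2 fold change was 0.70 ± 0.26 (SE, adjusted p = 0.226), and 0.70 ± 0.19 (SE, adjusted p = 0.0422) with the block. Over the 20 alternatives its adjusted p ranged from 0.0308 to 0.396. Summed levels of the 5 fibroblast markers in the table were highest, at 112.6 to 146.8 TPM, in siCTL libraries 1, 2 and 4 and siOct4 libraries 5 and 6. Lif was at 1.14 to 2.69 TPM in the former and 4.67 to 5.82 TPM in the latter. Summed levels of the 4 trophectoderm markers in the table were 11.9 to 37.9 TPM with siCTL and 16.2 to 99.9 TPM with siOct4, and were highest in siOct4 libraries 5 and 6, as Lif was. Of these 4, 3 had an unadjusted p under 0.05 and none was called, with a median log2 fold change of 0.88. The 4 did not move together. Hand1 and Tfap2c were higher with siOct4 in every pair, and Cdx2 in all but pair 3. Eomes was lower in every pair, at 6.34 to 16.1 TPM with siCTL and 3.91 to 9.65 TPM with siOct4. Tfap2c was also at 30.4 to 42.4 TPM in untreated ES cells of the induction series, so it does not mark trophectoderm alone here. The part of fibroblast or trophectoderm RNA in Lif was not tested.

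For Lifr the siCTL levels were 34.8, 36.9, 33.1, 113.2, 37.5 and 36.1 TPM. The siOct4 levels were 23.2, 11.5, 25.7, 39.4, 30.4 and 27.1 TPM. It was lower with siOct4 in 6 of 6 pairs, and siCTL library 4 stood far above all others. The 7 PrE markers summed to 1034 to 2882 TPM with siCTL, where library 4 was also the highest, and to 530.2 to 1178 TPM with siOct4. Of the 7, 5 had an unadjusted p under 0.05 and none was called, with a median log2 fold change of -0.60. Gata6, Gata4, Sox7 and Dab2 were lower with siOct4 in every pair, and Pdgfra in all but pair 3. Sox17 and Foxa2 had no common direction, at 35.6 to 66.3 and 19.1 to 32.5 TPM with siCTL and 27.5 to 60.7 and 15.5 to 39.3 TPM with siOct4. Dab2 alone was at 1732 TPM in siCTL library 4, so the sum largely follows it. The part of the PrE share of the cells in Lifr was not tested. The log2 fold change was -0.79 ± 0.32 (SE, adjusted p = 0.271), and -0.79 ± 0.20 (SE, adjusted p = 0.0331) with the block. Without siCTL library 4 it was -0.51, and without siCTL 3, siCTL 4, siOct4 2 and siOct4 3, whose values trended most with gene length, it was -0.29 ± 0.16 (SE, adjusted p = 0.363). Over its 21 alternatives the adjusted p ranged from 0.0143 to 0.466.

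Il6st, Stat3, Jak1 and Jak2 showed no common direction over pairs. Il6st was higher with siOct4 in 2 of 6 pairs, Stat3 in 3, Jak1 in 2 and Jak2 in 4. Their log2 fold changes were -0.47 (95% interval -1.25 to 0.31), -0.35 (95% interval -0.99 to 0.30), -0.24 (95% interval -0.82 to 0.35) and 0.01 (95% interval -0.53 to 0.55). The intervals reach past 0.5 in size, so these libraries could not show the absence of such a change. Il6st was at 11.1 to 13.7 TPM in siCTL 3, siOct4 2 and siOct4 3 and at 20.6 to 51.3 TPM in the other 9. The same 3 libraries were lowest for Stat3, at 15.9 to 19.3 TPM, for Jak1, at 17.9 to 23.9 TPM, and for Jak2, at 2.89 to 4.25 TPM. Values in them fell with gene length, by 0.209, 0.122 and 0.17 on the log2 scale per doubling, and exons of these 4 genes span 5030 to 11099 bases. Over 21 alternatives, gene length correction among them, the lowest adjusted p of these 4 genes was 0.144, for Il6st. The part of that trend in each value was not tested further.

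**Figure D5:**
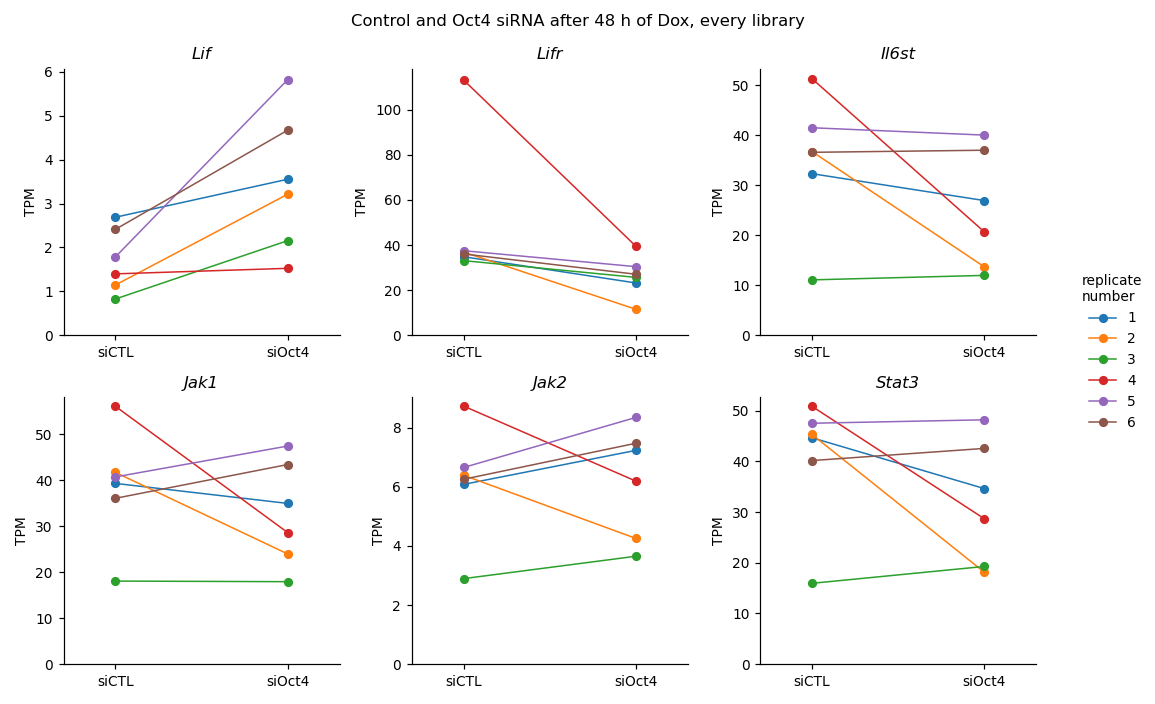
TPM (y axes, linear from 0) of the 6 members in the siRNA table with siCTL and siOct4 (x axis), with a line joining libraries of the same number. All 6 lines rise for Lif and all 6 fall for Lifr, while the other genes have lines in both directions and library 4 of siCTL stands out for Lifr at 113.2 TPM.

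Of the wider lists, 26 genes were in the siRNA table and none was called, with 8 at an unadjusted p under 0.05. With the pair as a block 6 were called, all lower with siOct4, where 6.15% of all genes were called lower and 2.43% higher, and they are named after their values were seen because they were so few. They were the negative regulators Socs2 (-0.88 ± 0.15, SE) and Socs1 (-0.87 ± 0.18, SE), the targets Bcl3 (-0.94 ± 0.19, SE), Klf5 (-0.86 ± 0.14, SE) and Tbx3 (-0.80 ± 0.18, SE), and Stat4 (-0.74 ± 0.19, SE). Their adjusted p under the block were between 0.00292 and 0.0363.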

How the data were processed

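RNA-seq was measured in 35 libraries. The authors deposited TPM, made by STAR alignment of paired reads from stranded polyA libraries to mm10 and RSEM quantification. The methods also mention a removal of outliers by principal components, without saying what was removed. Tool versions and the gene annotation are not given in the sources used here. Columns of the induction table all had the same sum. Those of the siRNA table, limited to genes the authors called responsive, summed to between 274527 and 355895. The siRNA table also held 9 columns of group means and text classes from the authors' own tests, none of which were used. The deposited TPM keep no depth, so the spread between libraries is the measure of error. The methods call the induction libraries independent replicates and the siRNA libraries independent knock-downs.

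Groups and replicate numbers came from the sample titles. Of 60 symbols listed more than once, the entry with the highest mean stayed. Genes whose mean reached 1 TPM in some group were tested on log2(TPM + 1) with limma 3.58.1 in R 4.3.3 (trend and robust), with 1 coefficient per group over all 23 induction libraries, or over the 12 siRNA libraries, and Benjamini-Hochberg adjustment over all genes tested. Scripts were tested on simulated data. Tests had been planned for counts and for normalised values before the unit was seen, and that for normalised values was used.

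The members and lists were chosen with earlier results of these data known. Genes named were the 7 members, Klf4, Klf5, Tfcp2l1 and Gbx2, up to 4 genes per list with the largest changes called at 168 h, list genes called for siOct4, and 3 like genes per member (1 of those of Lif is not reported here), with exceptions named where they occur. Deviations from group means correlated between same-numbered siRNA libraries at 0.236 to 0.707, with all 6 pairs over 0.1, so the numbers were taken as pairs. In the induction series 16 of 77 such pairs passed 0.1, and the numbers were not. Alternatives were no fold change minimum, median-of-ratios rescaling, a pseudocount of 0.1, no filter or a group mean of 5 TPM, the replicate block, only the groups compared, each library left out, and gene length correction, with exon lengths from GENCODE M21 for 98.6% of siRNA genes. The length correction with the block and the fit without 4 siRNA libraries were chosen after seeing the data. Gene spans came from GENCODE M21, promoters from RefSeq, where all 7 members matched.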

Additional observations from a re-analysis of the deposited data

Results flagged for a closer look

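Of 12 sets of 6 values screened, each a member in an siRNA group on the log2(TPM + 1) scale, 4 had a library far from the other 5. Chance alone would flag about 1 in 20 sets, or 0.6 of 12. The sets share libraries, so the 4 are not separate events and are not weighed against that number. Lifr in siCTL library 4 was at 6.84, with the others at 5.09 to 5.27. The other 3 belonged to siCTL library 3, where Il6st was at 3.59 (others 5.06 to 5.71), Stat3 at 4.08 (others 5.36 to 5.70) and Jak2 at 1.96 (others 2.82 to 3.28). These are the siCTL libraries with the steepest trends of values with gene length, at 0.186 and -0.209 per doubling, and the part of that trend in the values was not tested. Groups of 2 or 3 libraries in the induction series were not screened.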

How the results depend on the processing

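Without a fold change minimum, members called numbered 2, 4, 4, 6 and 6 at 16, 24, 48, 72 and 96 h. For XEN cells they numbered 7 against 0 h and 4 against 168 h. Of 44 wider list genes, 12, 18, 24, 31, 31 and 35 were called from 16 h to 168 h. In XEN cells 31 were called against 0 h and 26 against 168 h. Of all 15057 genes, 1191, 2511, 4164, 5108, 5189 and 6184 were then called higher from 16 h to 168 h. In the same order 758, 1782, 3929, 4765, 4949 and 5102 were lower. XEN cells had 5275 higher and 5446 lower against 0 h, and 2676 and 4849 against 168 h. Nothing particular to the members or lists is read from these counts. A pseudocount of 0.1 gave 1 member at 48 h, Jak2, and 6 list genes at 16 h. A fit of only the 2 groups gave 0 members for XEN cells against 168 h, with fewer samples for the spread. For siOct4, rescaling gave 1 member (Lif, 0.79) and 3 list genes, the replicate block 2 and 6, length correction 2 list genes, length correction with the block 2 and 6, and the fit without 4 libraries 1 list gene. Leaving out 1 library gave 1 to 2 members for XEN cells against 168 h and 0 to 2 list genes for siOct4. All-gene calls for siOct4 went from 59 higher and 108 lower of 6264 genes to 152 and 385 with the block. With rescaling they were 144 and 153 of 6250 genes. For the pseudocount of 0.1, the 2-group fit, length correction and fits with libraries left out, all-gene calls are not given here. Counts under those fits are therefore not set against a background, and nothing particular to the members or lists is read from them. Rescaling moved the share of calls that were higher from 34.0% to 46.4% for XEN cells against 168 h and from 35.3% to 48.5% for siOct4, and the median of all genes from -0.14 to -0.02 and from -0.12 to 0.01.

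Directions turned only for values near 0. Stat3 at 48 h was -0.02 with rescaling. Leaving out 1 library gave ranges across 0 for Lif at 16 h (-0.23 to 0.03), Stat3 at 16 h (-0.21 to 0.02) and 48 h (-0.07 to 0.16), Socs3 at 96 h (-0.10 to 0.02), Lif in XEN cells against 168 h (-0.02 to 0.37) and Jak2 with siOct4 (-0.16 to 0.13). Causes were not tested. Of 839 values of members under alternatives, 793 kept their direction and side of the threshold. In the induction series the block changed no call of a member. Depth is unknown, so limits for low genes such as Lif could not be set. The mean of at least 5 TPM left out Lif from the siRNA fit.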

Other observations

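The libraries and genes here were chosen after their values were seen. At 72 h, replicate 3 was lower than replicates 1 and 2 for Socs3 (64.6 against 155.4 and 150.9 TPM), Klf4 (50.9 against 106.4 and 111.6 TPM), Fos (63.2 against 224.2 and 207.4 TPM), Junb (78.5 against 152.5 and 140.0 TPM) and Tfcp2l1 (9.50 against 23.6 and 23.6 TPM), and was not apart for Jak2 (4.62 against 4.29 and 5.06 TPM). At 168 h, replicate 3 was higher for Socs3 (135.5 against 34.3 and 39.6 TPM) and Socs1 (4.96 against 1.26 and 1.93 TPM) and lower for Fos (226.3 against 334.4 and 351.9 TPM), with Klf4 level at 135.5 against 130.3 and 133.7 TPM. No test was made of these libraries.

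Myc, lowest among the ES libraries at 168 h with 1.54, 1.73 and 2.27 TPM, was at 19.4 and 17.3 TPM in XEN cells and was the only wider list gene called higher there than at 168 h.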
